A study of Rattus norvegicus with 18 samples.

Results

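The erythropoietin (EPO) receptor and its JAK-STAT-SOCS signalling genes were followed in rat brain cortex after blockage of the middle cerebral artery. The 10 genes were Epo, Epor, Jak2, Stat3, Stat5a, Stat5b, Socs2, Socs3, Cish and Pim1, taken as every non-control spot whose gene name, or whose rat symbol by accession, was one of these names. They were read by 11 probes (Stat3 by 2), out of 41012 probes naming 35537 genes on the array, and 9 of the 10 genes entered the tests, against 24279 genes in all. RNA of male Crl:CD(SD)BR rats was hybridized to 18 arrays of 1 colour. They formed 6 groups of 3: rats with ischemia treated with erythropoietin, rats with ischemia treated with saline, and sham-operated rats, each at 2 h and at 6 h. The sham rats had the treatment "none" in the labels, so they stand for the absence of both the occlusion and the saline. All groups shared strain, sex and tissue. The dose and timing of EPO, the age of the rats and the part of the cortex taken were not given in the sources used here.

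EPO is a hormone best known for driving red cell formation. It binds a pair of Epor chains on the cell surface, which activates the receptor-bound kinase Jak2. Jak2 then phosphorylates STAT proteins, Stat5a and Stat5b foremost and Stat3 in many cells, and these move to the nucleus and switch on genes such as Cish, Socs2, Socs3 and Pim1. Cish and the SOCS proteins act back on receptor and kinase and damp the signal. The signal itself is a change in phosphorylation, which the arrays did not measure, so the values below are transcript levels only.

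Levels are given on the log2 scale with each array's 75th percentile set to 0, and differences between groups on the same scale with the standard error of the fit after the ± sign. A gene or probe is said to have risen or fallen only at an adjusted p under 0.05, and in counts of genes each gene stands by its brightest probe. Every group had n = 3 arrays, and the small number of arrays limited the precision. The slope of signal on amount of spiked-in control transcripts parted the arrays into 6 steep ones (slopes of 0.914 to 0.941) and 12 others (0.788 to 0.866), and fewer probes were well above background on the steep arrays (61.5% to 66.4%, against 68.6% to 80.6%). Steep arrays numbered 1 with EPO, 1 with saline and 0 in sham at 2 h, and 1 with EPO, 2 with saline and 1 in sham at 6 h. All 10 neuron, 10 astrocyte and 12 oligodendrocyte markers on the array were well above background on all 18 arrays, as were 9 of the 10 markers of striatal neurons, and the tissue was bulk cortex, in which fewer cells of a type and less RNA per cell cannot be told apart.

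The 250 bases before the annotated start of the genes that rose (Jak2, Stat3 and Socs3, as reported below) and of Cish are shown, because the palindromic STAT motif TTCNNNGAA was searched in them. The motif reads the same on both strands. The sequences are from RefSeq, build GRCr8, are written along the strand of the gene, and have the motif in capitals. The windows were chr1:236408655-236408904 on the + strand for Jak2, chr10:86363360-86363609 on the - strand for Stat3, chr10:103694769-103695018 on the - strand for Socs3 and chr8:116850719-116850968 on the + strand for Cish.
Jak2: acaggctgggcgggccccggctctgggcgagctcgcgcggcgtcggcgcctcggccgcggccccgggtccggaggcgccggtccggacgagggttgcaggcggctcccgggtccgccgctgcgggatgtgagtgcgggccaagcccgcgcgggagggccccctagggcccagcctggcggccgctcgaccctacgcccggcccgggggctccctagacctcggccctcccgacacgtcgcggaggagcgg
Stat3: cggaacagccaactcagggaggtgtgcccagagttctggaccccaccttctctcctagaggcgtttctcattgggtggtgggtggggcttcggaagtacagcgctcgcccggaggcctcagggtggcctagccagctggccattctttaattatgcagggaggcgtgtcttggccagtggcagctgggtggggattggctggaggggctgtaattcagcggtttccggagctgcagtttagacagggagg
Socs3: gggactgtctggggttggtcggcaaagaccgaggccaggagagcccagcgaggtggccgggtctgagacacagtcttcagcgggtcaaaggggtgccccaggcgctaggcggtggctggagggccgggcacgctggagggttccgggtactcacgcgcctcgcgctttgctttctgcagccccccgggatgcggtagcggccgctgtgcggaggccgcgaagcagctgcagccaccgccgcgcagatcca
Cish: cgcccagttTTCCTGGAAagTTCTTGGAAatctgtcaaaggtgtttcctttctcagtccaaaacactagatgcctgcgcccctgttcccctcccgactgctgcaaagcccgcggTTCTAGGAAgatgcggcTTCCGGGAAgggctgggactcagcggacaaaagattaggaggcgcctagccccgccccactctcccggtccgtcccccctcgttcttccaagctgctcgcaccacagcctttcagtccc
Of the 9 members in the promoter table, 1 held the motif: Cish, with 4 matches, which began 241, 230, 136 and 119 bases before the start and read TTCCTGGAA, TTCTTGGAA, TTCTAGGAA and TTCCGGGAA. Over all 33469 promoters of the table, 7.67% held at least 1 match in the same window, and 2 promoters (0.00598%) held 4 or more. A match is a description of the letters and not of binding, and a window without one says nothing of the factor. Socs2 was not among the promoters of the table.

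**Figure D1:**
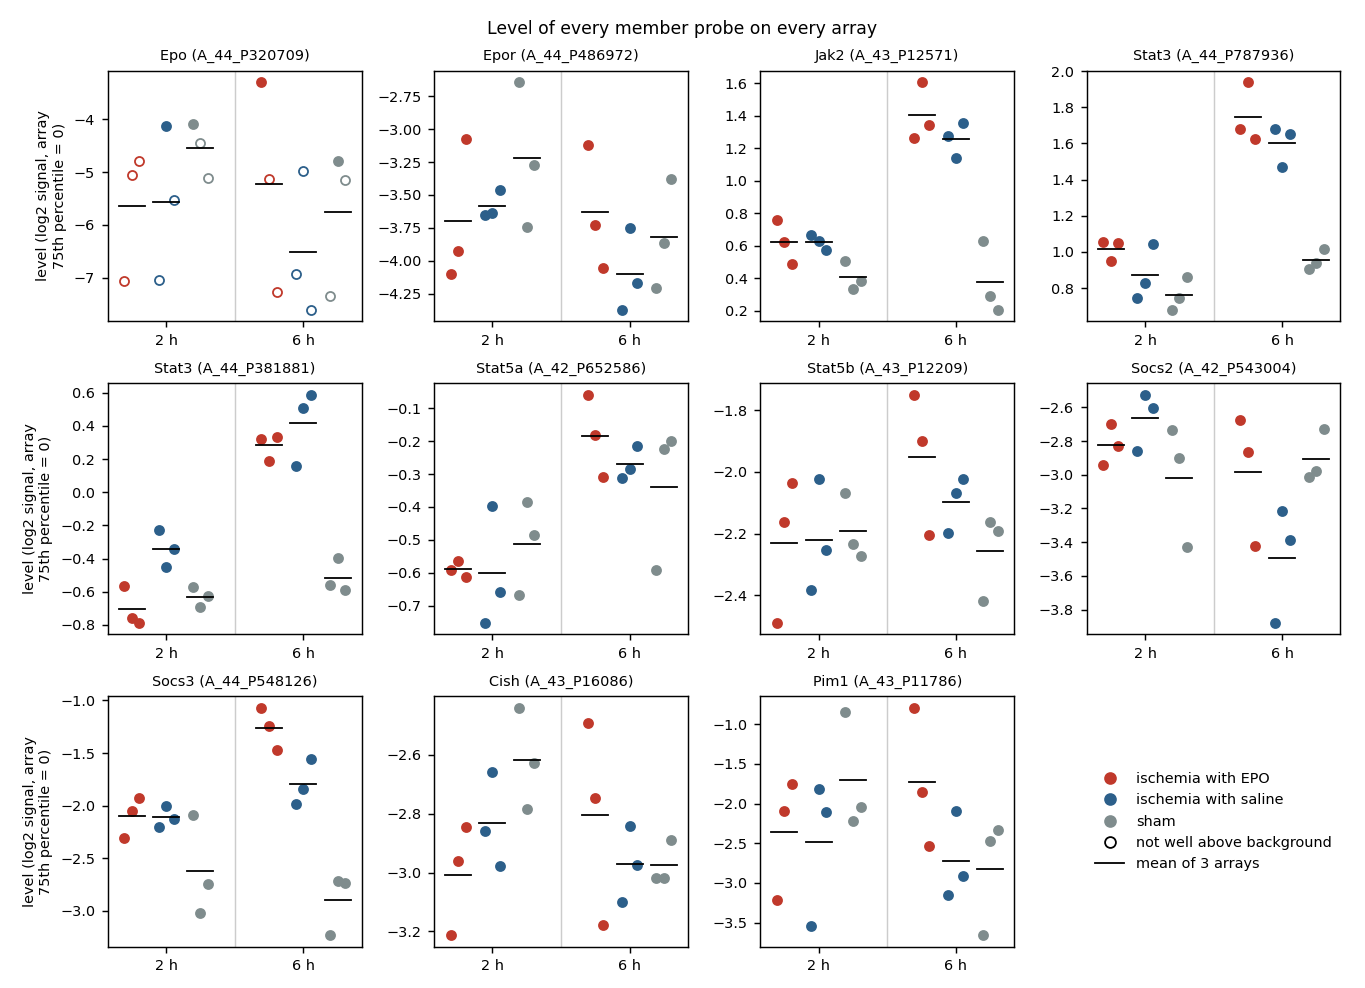
Each panel gives the level of 1 probe of a member gene on each of the 18 arrays, as log2 signal with the array's 75th percentile at 0, at 2 h (left) and 6 h (right), with ischemia plus EPO in red, ischemia plus saline in blue and sham in grey. Points are arrays, bars are means of 3, and open points were not well above background. At 6 h the Jak2, Stat3 and Socs3 arrays of both ischemic groups all lie above the sham arrays, whereas most Epo points are open.

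The ligand's own transcript was at or near the limit of detection. Epo (A_44_P320709), read by 10 spots on each array, was well above background on 4 of the 18 arrays: 0 of 3 with EPO, 1 of 3 with saline and 1 of 3 sham at 2 h, and 1 of 3 with EPO, 0 of 3 with saline and 1 of 3 sham at 6 h. Its levels were -7.05, -5.06 and -4.79 with EPO, -7.04, -4.13 and -5.52 with saline and -4.09, -4.44 and -5.12 in sham at 2 h. At 6 h they were -3.29, -5.14 and -7.27 with EPO, -6.93, -4.99 and -7.60 with saline and -7.35, -4.78 and -5.14 in sham. The dimmest probe that an array still called well above background lay between -5.46 and -4.17, so most of these values are bounds, and no difference in Epo was tested or is given. On the 6 steep arrays Epo lay between -7.60 and -6.93 and on the other 12 between -5.52 and -3.29, ranges that do not overlap. Its spots also scattered most, with a median SD of 0.27 between the 10 spots of an array, against 0.07 for Jak2 and 0.06 for the Stat3 probe with 10 spots.

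Epor, the receptor chain that binds EPO, was well above background on all 18 arrays and was not called in any comparison. At 2 h its levels (A_44_P486972) were -4.10, -3.92 and -3.08 with EPO, -3.65, -3.63 and -3.46 with saline and -2.64, -3.74 and -3.28 in sham. At 6 h they were -3.12, -3.73 and -4.05 with EPO, -4.37, -3.75 and -4.17 with saline and -4.21, -3.86 and -3.38 in sham. The groups overlapped in every comparison of Epor at either time. EPO minus saline was -0.12 ± 0.34 at 2 h (95% interval -0.84 to 0.61) and 0.46 ± 0.34 at 6 h (-0.26 to 1.19). The residual SD of Epor within groups was 0.43, and changes of the receptor transcript anywhere within those intervals remain compatible with the values. Both differences turned with the processing, to 0.02 at 2 h and -0.09 at 6 h after quantile normalization, and to 0.26 at 2 h with the slide as a block. Within slides the difference at 6 h was 1.25 on slide 2, where the saline array was steep and the EPO array was not, and 0.02 and 0.12 on slides 3 and 5.

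The kinase, 1 of the STATs and 1 of the feedback inhibitors were higher in ischemic cortex at 6 h. Jak2, Stat3 and Socs3 rose in ischemia with saline against sham at 6 h and no member fell, so 3 of the 9 genes were called, where 11% of the 28634 probes tested were called, 4.79% as higher and 6.26% as lower. In EPO-treated ischemia against the same sham arrays, the same 3 genes rose and none fell, where 16.1% of all probes were called, 6.53% as higher and 9.59% as lower. At 2 h, 0 of the 9 genes were called in ischemia with saline, where 1.24% of all probes were (0.898% higher and 0.346% lower). There 1 gene by its brightest probe, Socs3, had an unadjusted p under 0.05 in limma, as had 3320 of the 28634 probes. The dimmer Stat3 probe was under 0.05 there as well (0.29 ± 0.11, unadjusted p = 0.0172, adjusted p = 0.269 in limma). In EPO-treated ischemia at 2 h 0 of the 9 were called too, where 1.33% of all probes were (1% higher and 0.332% lower). An unadjusted p under 0.05 in limma was found for 3 genes and for 3450 of the 28634 probes. The 3 genes differed in direction, with Socs3 and the brighter Stat3 probe above sham and Cish below it. These comparisons at each time share the sham arrays and are not independent.

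Jak2 (A_43_P12571), the tyrosine kinase bound to the EPO receptor and to several other cytokine receptors, had levels of 1.26, 1.61 and 1.34 with EPO, 1.28, 1.14 and 1.35 with saline and 0.63, 0.29 and 0.21 in sham at 6 h. Both ischemic groups lay wholly above sham and overlapped each other. Ischemia with saline was 1.84-fold higher than sham (0.88 ± 0.12, adjusted p = 0.000373) and EPO-treated ischemia 2.04-fold higher (1.03 ± 0.12, adjusted p = 7.01e-05). Within slides 3 and 5, which each held 1 array of these groups, ischemia with saline minus sham was 0.85 and 0.72. At 2 h the levels were 0.76, 0.62 and 0.49 with EPO, 0.67, 0.63 and 0.57 with saline and 0.50, 0.33 and 0.38 in sham. The saline arrays at 2 h lay above all sham arrays, but the difference of 0.22 ± 0.12 did not pass the test (adjusted p = 0.515).

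Stat3, the transcription factor shared by EPO and the interleukin-6 family, was read by 2 probes. The brighter (A_44_P787936, 10 spots) had levels of 1.68, 1.94 and 1.63 with EPO, 1.68, 1.47 and 1.65 with saline and 0.90, 0.94 and 1.02 in sham at 6 h. The other (A_44_P381881, 1 spot) had 0.32, 0.19 and 0.33 with EPO, 0.16, 0.51 and 0.59 with saline and -0.56, -0.40 and -0.59 in sham. On both probes all 6 ischemic arrays lay above the 3 sham arrays. Ischemia with saline was higher by 0.65 ± 0.10 (1.57-fold, adjusted p = 0.000926) on the brighter probe and by 0.93 ± 0.11 (1.91-fold, adjusted p = 0.000115) on the other. EPO-treated ischemia was higher than sham by 0.80 ± 0.10 (adjusted p = 0.000121) and by 0.80 ± 0.11 (adjusted p = 0.000244). Within slides 3 and 5, saline minus sham was 0.53 and 0.75 on the brighter probe and 0.90 and 1.15 on the other.

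Socs3 (A_44_P548126), the feedback inhibitor that binds JAKs and the gp130 receptor chain, showed the largest ischemic difference of the called members at 6 h. At 6 h its levels were -1.07, -1.24 and -1.47 with EPO, -1.99, -1.85 and -1.55 with saline and -3.23, -2.71 and -2.74 in sham. The 3 groups did not overlap: every EPO array lay above every saline array, and every saline array above every sham array. Ischemia with saline was 2.14-fold higher than sham (1.1 ± 0.22, adjusted p = 0.00565) and EPO-treated ischemia 3.10-fold higher (1.63 ± 0.22, adjusted p = 0.000236). Within slides 3 and 5, saline minus sham was 0.87 and 1.68 and EPO-treated ischemia minus sham 1.47 and 1.76. At 2 h the levels were -2.31, -2.06 and -1.93 with EPO, -2.20, -2.01 and -2.13 with saline and -2.09, -3.02 and -2.75 in sham. Sham replicate 1 lay among the ischemic arrays at 2 h, and saline minus sham, 0.51 ± 0.22, did not pass the test (adjusted p = 0.37), though it did after quantile normalization (0.76, adjusted p = 0.0218).

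Ischemia with saline at 6 h was a group with 2 steep arrays, and the calls there could not be checked well without them. Without the 6 steep arrays 1 saline array was left against 2 sham arrays, assumed to vary like the other groups. Most calls over all probes were lost in that fit, as were those of the 3 genes by their brightest probe, so its differences alone are given. Jak2 was at 0.89, Socs3 at 0.88, the brighter Stat3 probe at 0.49 and the other Stat3 probe at 1.00. With the 2 classes of array as a block, the 3 genes passed at 0.83, 1.18 and 0.66 for Jak2, Socs3 and the brighter Stat3 probe.

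The remaining members were not called in any comparison of ischemia with sham, except that Stat5b and Pim1 passed in EPO-treated ischemia at 6 h with the class of array as a block. Stat5a and Stat5b, the STATs most tied to EPO signalling, had small differences at 6 h: saline minus sham at 6 h was 0.07 ± 0.12 (95% interval -0.18 to 0.32) for Stat5a and 0.16 ± 0.14 (-0.14 to 0.46) for Stat5b, and the groups overlapped for both. Stat5a (A_42_P652586) lay between -0.75 and -0.06 over the 18 arrays, and Stat5b (A_43_P12209) between -2.49 and -1.75. EPO-treated ischemia minus sham at 6 h was 0.16 ± 0.12 for Stat5a (adjusted p = 0.473) and 0.31 ± 0.14 for Stat5b (adjusted p = 0.171), and with that block Stat5b was called (0.31, adjusted p = 0.0369).

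Cish (A_43_P16086), a SOCS-family inhibitor and a classical target of STAT5, was at -2.49, -2.75 and -3.18 with EPO, -3.10, -2.84 and -2.97 with saline and -3.02, -3.02 and -2.89 in sham at 6 h. The 3 groups overlapped, and saline minus sham was 0.00 ± 0.16 (95% interval -0.33 to 0.34), so the gene whose promoter held the 4 motif matches above was not among those called. At 2 h it was at -3.21, -2.96 and -2.85 with EPO, -2.86, -2.66 and -2.98 with saline and -2.44, -2.79 and -2.63 in sham. All 3 EPO arrays lay below all sham arrays at 2 h (-0.39 ± 0.16), and the difference did not pass (adjusted p = 0.329) and was -0.06 after quantile normalization.

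Socs2 (A_42_P543004), the family member best known for restraining growth hormone signalling, had levels of -2.67, -2.86 and -3.42 with EPO, -3.88, -3.21 and -3.39 with saline and -3.01, -2.98 and -2.73 in sham at 6 h. The saline arrays lay below all sham arrays, while the EPO arrays overlapped both other groups. Saline minus sham was -0.59 ± 0.22 (adjusted p = 0.11) and EPO-treated ischemia minus sham -0.08 ± 0.22 (adjusted p = 0.924). At 2 h its levels lay between -2.94 and -2.70 with EPO, between -2.86 and -2.53 with saline and between -3.43 and -2.73 in sham. The saline difference at 2 h, 0.36 ± 0.22, had the opposite sign to that at 6 h, and neither passed the test (adjusted p = 0.575 at 2 h). Quantile normalization gave 0.73 at 2 h and normexp background correction -0.28 at 6 h, with neither called.

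Pim1 (A_43_P11786), a serine/threonine kinase that promotes survival and is switched on by STATs, scattered more than any other tested member, with a residual SD of 0.77. At 6 h its levels were -0.79, -1.85 and -2.54 with EPO, -3.15, -2.10 and -2.92 with saline and -3.66, -2.47 and -2.33 in sham. Saline minus sham was 0.10 ± 0.60 (95% interval -1.20 to 1.39), so changes anywhere within that wide interval remain compatible with the values. At 2 h they were -3.22, -2.09 and -1.76 with EPO, -3.54, -1.81 and -2.10 with saline and -0.85, -2.22 and -2.04 in sham. The groups overlapped at both times.

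Besides the 3 genes called, Socs2 was the fourth member whose saline and sham arrays did not overlap at 6 h. Over all probes, 10.9% had every saline array above every sham array and 21.4% every saline array below. At 2 h Jak2 was the 1 gene of the 9 that did so by its brightest probe, where 6.67% of all probes lay wholly above and 9.06% wholly below sham. The dimmer Stat3 probe did so too, with -0.23, -0.45 and -0.34 with saline and -0.57, -0.69 and -0.63 in sham, while the brighter overlapped. In EPO-treated ischemia the groups did not overlap for 2 genes by brightest probe at 2 h, Cish below sham and Stat3 above it (7.61% of all probes above and 12.8% below). The brighter Stat3 probe was at 0.25 ± 0.10 there, and the dimmer at -0.07 ± 0.11 with overlapping groups. At 6 h the groups did not overlap for the 3 called genes (11.8% above and 19.2% below). The median difference of the 9 genes in ischemia with saline against sham was 0.10 at 6 h, against -0.13 over all probes tested, and -0.03 at 2 h, against -0.07.

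**Figure D2:**
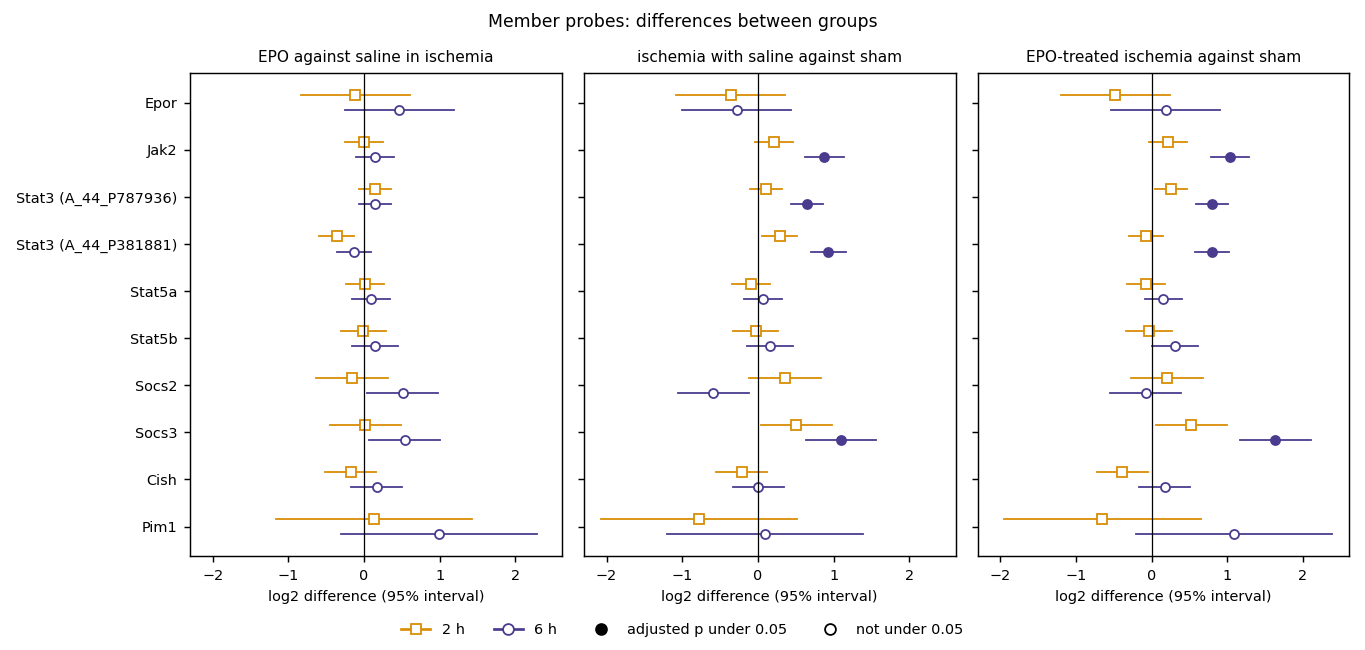
Points are log2 differences of the 10 tested member probes with 95% intervals, for EPO against saline in ischemia (left), ischemia with saline against sham (middle) and EPO-treated ischemia against sham (right), with squares for 2 h and circles for 6 h. Filled points passed at an adjusted p under 0.05: Jak2, Socs3 and both Stat3 probes at 6 h in the comparisons with sham, and no probe in EPO against saline.

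No member was called between EPO and saline in ischemia. Of the 9 genes 0 passed in EPO against saline at 2 h and 0 at 6 h, where 0% of the 28634 probes were called at either time. At an unadjusted p under 0.05 in limma 381 probes and 0 member genes by their brightest probe passed at 2 h, though the dimmer Stat3 probe did, and 1184 probes and 2 member genes, Socs3 and Socs2, passed at 6 h. The median difference of the members was 0.00 at 2 h and 0.17 at 6 h, against 0.00 and 0.05 over all probes.

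Socs3 was the member whose EPO and saline arrays did not overlap at 6 h, with 5.21% of all probes wholly higher and 3.48% wholly lower under EPO. The difference was 0.54 ± 0.22 (95% interval 0.07 to 1.00, unadjusted p = 0.0273, adjusted p = 0.778). Within slides it was 0.92 on slide 2, 0.60 on slide 3 and 0.08 on slide 5, each with 1 array a group, and over 13 alternatives and 18 fits that each left out 1 array it ran from 0.43 to 0.69. On slide 2 the saline array was steep and the EPO array was not. At 2 h the difference was 0.02 ± 0.22.

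Socs2 was higher under EPO than under saline at 6 h by 0.51 ± 0.22 (unadjusted p = 0.0376, adjusted p = 0.778). EPO replicate 3, at -3.42, lay below 2 of the 3 saline arrays, and quantile normalization left a difference of 0.08. Within slides 2, 3 and 5 the difference was 1.20, 0.35 and -0.03. The other differences at 6 h were 0.99 ± 0.60 for Pim1, 0.17 ± 0.16 for Cish, 0.15 ± 0.12 for Jak2, 0.15 ± 0.14 for Stat5b and 0.09 ± 0.12 for Stat5a, each at an adjusted p of 0.778 or above. Quantile normalization turned the direction for Cish (-0.17) and Stat5b (-0.03). For Pim1 the within-slide differences were 2.36, 0.25 and 0.38 on slides 2, 3 and 5.

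The 2 Stat3 probes had opposite signs in EPO against saline at 2 h. On the brighter probe the levels were 1.05, 0.95 and 1.05 with EPO and 0.75, 0.83 and 1.05 with saline, a difference of 0.15 ± 0.10 with overlapping groups. On the other they were -0.56, -0.76 and -0.79 with EPO and -0.23, -0.45 and -0.34 with saline, a difference of -0.36 ± 0.11 (unadjusted p = 0.00436, adjusted p = 1), with all EPO arrays below all saline arrays, as in 1.77% of all probes (2.42% had all EPO arrays above). Taken as the log2 ratio of the dimmer to the brighter probe on each array, the EPO arrays lay between -1.84 and -1.62 and the saline arrays between -1.39 and -0.98. That difference of -0.51 had an exact permutation p of 0.1, two-sided, the smallest that 3 against 3 arrays allow, and 0.3 after Benjamini-Hochberg adjustment over the 4 comparisons examined. The probe pair was singled out after its values were seen. At 6 h the probes again had opposite signs, with EPO minus saline at 0.15 ± 0.10 on the brighter and -0.14 ± 0.11 on the dimmer (adjusted p = 0.778 for each in limma), and the groups overlapped on both.

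The ischemic differences of Jak2, Stat3 and Socs3 had larger values at 6 h than at 2 h, and the change between the times did not pass the test. The ischemic change at 6 h minus that at 2 h was 0.66 ± 0.16 for Jak2 (adjusted p = 0.0721), 0.54 ± 0.14 and 0.64 ± 0.15 for the brighter and the dimmer Stat3 probe (adjusted p = 0.0762 and 0.0528) and 0.59 ± 0.31 for Socs3 (adjusted p = 0.493). None of the 9 genes was called in this comparison, in which 1.43% of all probes were (0.814% higher and 0.618% lower). An unadjusted p under 0.05 in limma was found for 3 of the genes and for 3479 of the 28634 probes. Besides Jak2 and the brighter Stat3 probe, the third of these genes was Socs2, in the other direction at -0.95 ± 0.31 (adjusted p = 0.195). Jak2 passed without sham replicate 1 at 6 h (0.79, adjusted p = 0.0239), and the dimmer Stat3 probe passed without saline replicate 1 at 6 h (0.77, adjusted p = 0.0122) and without EPO replicate 1 at 2 h (0.64, adjusted p = 0.0482). Socs3 was at 0.32 without sham replicate 1 at 2 h (adjusted p = 0.777), and the brighter Stat3 probe at 0.32 without the 6 steep arrays (adjusted p = 0.937).

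In sham cortex 0 of the 9 genes differed between 6 h and 2 h by the test, with 0.482% of all probes called. Cish, Pim1 and the brighter Stat3 probe had groups that did not overlap, as 7.3% of all probes did upwards and 11.9% downwards. Cish was at -0.36 ± 0.16 (adjusted p = 0.506), Pim1 at -1.12 ± 0.60 (adjusted p = 0.625) and the Stat3 probe at 0.19 ± 0.10 (adjusted p = 0.6). For Pim1, sham at 6 h held 1 steep array and sham at 2 h held 0.

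Several members moved with the class of the array. Pim1 lay between -3.66 and -2.54 on the 6 steep arrays and between -2.47 and -0.79 on the other 12, with no overlap. Epor lay between -4.37 and -3.65 on the steep arrays and between -3.92 and -2.64 on the others, Socs2 between -3.88 and -2.86 against -3.43 and -2.53, and Cish between -3.21 and -2.86 against -3.02 and -2.44. For Jak2, the steep arrays lay between 0.63 and 1.35 and the others between 0.21 and 1.61. These ranges pool the 6 groups and so mix class with treatment. With each group's mean taken off, Pearson's r of level with slope was -0.89 for Pim1, -0.82 for Stat5b and -0.64 for Socs2 and Cish. It was -0.60 for Epor, -0.56 for Socs3, -0.49 for Stat5a and 0.44 for Jak2, and -0.06 and 0.30 for the brighter and the dimmer Stat3 probe. With the class as a block, EPO minus saline at 6 h was 0.58 for Pim1, 0.46 for Socs3, 0.39 for Socs2 and 0.30 for Epor, each at an adjusted p of 0.935. In the same fit Pim1 passed in EPO-treated ischemia against sham at 6 h (1.09, adjusted p = 0.0307), as did Stat5b, which brought the count there to 5 genes. Calls over all probes increased there as well, to 2235 higher and 3138 lower, against 1869 and 2746 without the block.

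**Figure D3:**
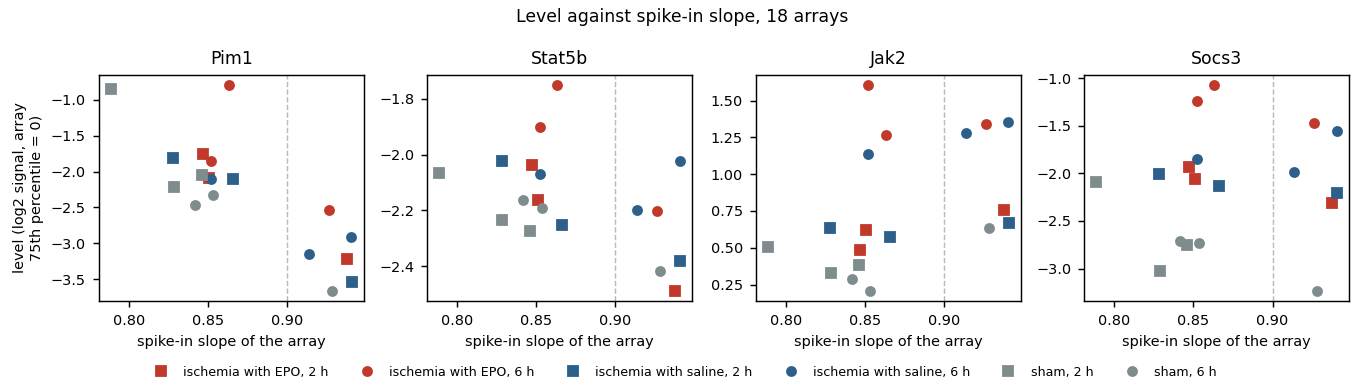
Points are the 18 arrays, with the slope of the array's spiked-in controls on the x axis and the log2 level of the gene on the y axis, squares for 2 h, circles for 6 h and colours for the groups, and a dashed line at a slope of 0.9. Pim1 lies lower on all 6 arrays right of the line, whereas for Jak2 and Socs3 the 6 h arrays of both ischemic groups lie above the others on each side of it. Stat5b lies between -2.49 and -2.02 right of the line and between -2.27 and -1.75 left of it.

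The rest of the JAK-STAT pathway was read from a list of 85 further genes, of which 79 were on the array and 69 were tested. In ischemia with saline against sham, 6 of the 69 rose and 0 fell at 2 h, where 0.898% of all probes rose and 0.346% fell. At 6 h 15 rose and 4 fell, where 4.79% of all probes rose and 6.26% fell. The median difference over the 69 was -0.07 at 2 h and 0.07 at 6 h, against -0.07 and -0.13 over all probes. Target genes made up most of the rises, with 5 of 13 at 2 h and 10 of 13 at 6 h (1 fell), and a median of 0.98 at 6 h. The list was chosen with earlier results of these data known, so the share of targets that rose is a description and no test of the pathway. Of the other roles at 6 h, 1 of 9 ligands, 2 of 17 receptors, 1 of 14 negative regulators, 1 of 10 adapters and 0 of 6 kinases and STATs rose.

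Among the targets, Junb, an AP-1 transcription factor, rose most at 2 h (2.36 ± 0.22, 5.15-fold, adjusted p = 6.14e-05), and Cebpd, a C/EBP transcription factor of the acute phase, rose at both times (1.21 ± 0.13 at 2 h and 1.91 ± 0.13 at 6 h). Timp1, an inhibitor of matrix metalloproteinases, was 2.97-fold higher at 2 h (1.57 ± 0.19) and 6.52-fold higher at 6 h (2.70 ± 0.19, adjusted p = 2.57e-06). Cebpb, a further C/EBP factor, rose by 0.77 ± 0.08 at 2 h. At 6 h Mcl1, an anti-apoptotic Bcl-2 protein, rose by 1.11 ± 0.07 and Myc, a growth-promoting transcription factor, by 1.52 ± 0.10. Many of these genes are also targets of other pathways, which the arrays do not tell apart.

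Of the receptors, Il4r rose by 1.31 ± 0.17 (2.47-fold, adjusted p = 0.000368) and Il6r, the interleukin-6 receptor, by 0.84 ± 0.14 (adjusted p = 0.00254), while Ifngr1, an interferon gamma receptor chain, fell by 0.33 (adjusted p = 0.0444). Among the ligands, Clcf1, a cytokine of the interleukin-6 family, rose by 0.68 ± 0.16 and Thpo, thrombopoietin, fell by 0.67 (adjusted p = 0.0151 and 0.034). Socs1, the closest relative of Socs3 in action on JAKs, rose by 0.54 ± 0.11 (adjusted p = 0.0086), and Pias3, an inhibitor of STAT3, fell by 0.50 (adjusted p = 0.00221). Lyn, a Src-family kinase that can act at the EPO receptor, rose by 0.83 ± 0.06 (adjusted p = 4.18e-06), and Irs2, an adapter of insulin signalling, rose at 2 h by 0.55 ± 0.12 (adjusted p = 0.0393). None of the other kinases and STATs passed at either time, and those of smallest p were Stat2 at 2 h (-0.32 ± 0.12, adjusted p = 0.269) and Stat4 at 6 h (-0.41 ± 0.31, adjusted p = 0.479). At 2 h the ligand, receptor and negative regulator of smallest p, Il4 (-0.92 ± 0.66), Osmr (-1.56 ± 0.56) and Ptpn6 (0.28 ± 0.07), did not pass (adjusted p = 0.616, 0.251 and 0.0997). The saline means of Il4 (-5.06) and Osmr (-5.32) at 2 h and of Stat4 (-4.23) at 6 h were near the limit of detection. They lay within the range of -5.46 to -4.17 given above for the dimmest probes still called well above background.

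**Figure D4:**
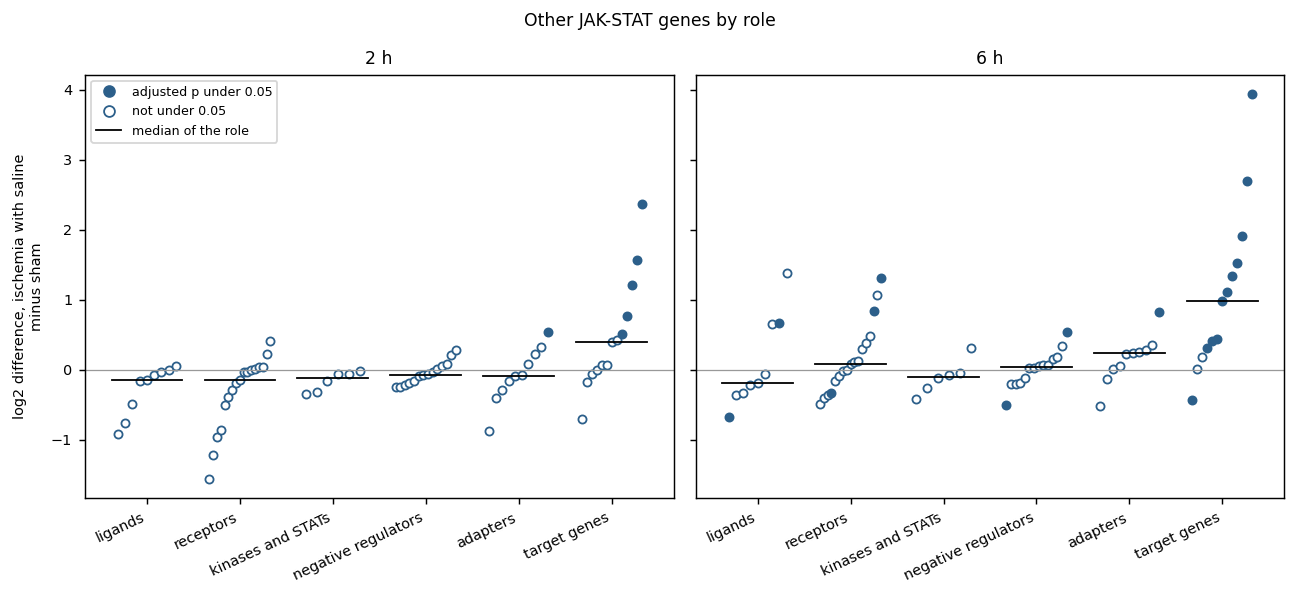
Points are the 69 other JAK-STAT genes tested, by role along the x axis, with the log2 difference of ischemia with saline minus sham on the y axis at 2 h (left) and 6 h (right). Filled points passed at an adjusted p under 0.05 and bars are the medians of a role. The target genes have a median of 0.40 at 2 h and 0.98 at 6 h.

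In EPO against saline 0 of the 69 genes were called at 2 h and 0 at 6 h, as for the members. In EPO-treated ischemia against sham, 7 of the 69 rose and 0 fell at 2 h, where 1% of all probes rose and 0.332% fell. At 6 h 19 rose and 4 fell, where 6.53% of all probes rose and 9.59% fell. Of 11 genes that control Epo transcription or oxygen sensing, or are read as its hypoxic partner, 0 were called at 2 h and 3 had risen at 6 h in saline-treated ischemia: Vegfa, the vascular growth factor induced by hypoxia (0.52 ± 0.10, adjusted p = 0.00459), Egln3, a prolyl hydroxylase that marks HIF for degradation (0.36 ± 0.08, adjusted p = 0.0141), and Vhl, the ligase subunit that binds the marked HIF (0.33 ± 0.08, adjusted p = 0.018). In EPO-treated ischemia 5 of the 11 rose against sham at 6 h, and 0 were called in EPO against saline. Over all probes, 4.79% rose at 6 h in ischemia with saline and 6.53% in EPO-treated ischemia. Egln3 at 2 h was at 0.19 ± 0.08 (adjusted p = 0.368).

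Markers of other cell types moved in the same comparison at 6 h, and their part in the rise of Jak2, Stat3 and Socs3 was not tested. Over all probes, 4.79% rose and 6.26% fell in ischemia with saline against sham, and 6.53% rose and 9.59% fell in EPO-treated ischemia. In ischemia with saline against sham, 2 of 6 tested neutrophil markers rose, 6 of 12 endothelial markers fell, and of 14 markers of microglia and macrophages 3 rose and 2 fell. Of the other lists, 3 of 10 neuronal markers and 1 of 10 astrocyte markers fell, 2 of 12 oligodendrocyte and 2 of 9 striatal neuron markers rose, and 0 of 7 red cell markers were called. In EPO-treated ischemia against sham 7 of 9 striatal neuron markers (median difference 0.70), 4 of 12 oligodendrocyte and 3 of 6 neutrophil markers rose, 4 of 10 neuronal markers fell, and 6 of 12 endothelial markers fell and 1 rose. The summed signal of the striatal neuron markers, in multiples of the array's 75th percentile, was 34.3 to 43.7 with EPO, 31.3 to 37.5 with saline and 20.4 to 26.9 in sham at 6 h, so both ischemic groups lay wholly above sham. At 2 h it was 30.3 to 34.2 with EPO, 25.7 to 35.5 with saline and 16.4 to 27.9 in sham. The summed neuronal signal at 6 h was 143 to 161 with EPO, 154 to 158 with saline and 168 to 183 in sham, with both ischemic groups below sham. The summed neutrophil signal was 0.852 to 2.41 with EPO, 1.18 to 1.53 with saline and 0.355 to 0.708 in sham at 6 h. Here too both ischemic groups lay wholly above sham, as for the striatal neuron markers and for Jak2, Stat3 and Socs3. The summed microglia and macrophage signal was 45.1 to 54.0 with EPO, 48.5 to 53.8 with saline and 41.1 to 47.6 in sham, so saline lay above sham and EPO overlapped it. The summed endothelial signal was 17.3 to 20.3 with EPO, 15.8 to 17.1 with saline and 17.2 to 21.4 in sham. The summed red cell signal was 4.01 to 4.30 with EPO, 2.17 to 3.26 with saline and 2.45 to 3.52 in sham at 6 h. The EPO arrays lay above both other groups, and 0 of 7 red cell markers were called in EPO against saline. The cause of the higher sums was not tested, and steep arrays numbered 1 with EPO, 2 with saline and 1 in sham. At 2 h the red cell sums overlapped in all groups, at 3.35 to 4.57 with EPO, 3.13 to 4.52 with saline and 2.75 to 4.27 in sham.

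As a description, the genes whose levels over the 18 arrays were most like each called member were named by Pearson's r. Jak2 was closest to Myc (0.974), Lmna (0.968) and Zdhhc18 (0.967), the brighter Stat3 probe to Srxn1 (0.976), Ets1 (0.962) and Anp32e (0.961), and Socs3 to Stc1 (0.954), Cyp1b1 (0.952) and Rsad2 (0.939). The 18 points share the 6 groups, the slides and the class of array, so these values carry no test.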

How the data were processed

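RNA of brain cortex was measured on 1-colour Agilent arrays, 1 array per sample, on 5 slides. The deposited scanner files (Agilent Feature Extraction, version 9.1.1.1, per the file headers) give each spot's processed intensity, a background-subtracted signal on a linear scale, with calls of background, saturation and outliers. The authors' deposited value table holds log2 intensity per probe without scaling between arrays, and it differed from the mean log2 processed signal by at most 5.3e-14. No genome build entered the arrays' values.

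From these files the log2 processed signal was taken, spots that the software marked as outliers were left out, and the 75th percentile over the non-control spots of each array was subtracted. Spots of a probe were averaged, and the brightest probe stood for a gene. A probe was tested where all arrays of 1 or more groups called it well above background (28634 probes), and 345 probes that lost all spots on an array were left out. Names came from accession (10735 probes), symbol (5571) or synonym (3729) in RefSeq's rat gene table, and 20977 kept the name in the file. No member spot was saturated or an outlier.

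Tests were made with limma (version 3.58.1, under R 4.3.3, with data.table, version 1.17.8, to read the tables). The model had 6 group means over 18 arrays and 12 residual degrees of freedom. Its moderated tests were two-sided, adjusted by Benjamini-Hochberg over all probes tested, with a threshold of 0.05. Intervals are 95% intervals without adjustment. The labels number 3 replicates a group and do not say more of their origin, so p-values measure the spread between these samples. On simulated data with 200 changed probes among 28634, for ischemia with saline against sham at 6 h, the fit found 46.7% of the 1.5-fold, 66% of the 2-fold and 81.3% of the 4-fold changes and made 6.67 false calls a run. The simulated noise was independent between arrays and held no effect of slide or class of array. In the real comparison 3164 probes were called, so these rates need not hold for it.

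The members and the gene lists were chosen with earlier results of these data known. Named were all members, up to 4 genes of smallest p per role that passed in ischemia with saline against sham (for a role with none, the 1 of smallest p), and the 3 genes most like each called member. Same-numbered replicates were checked for pairing: between EPO and saline at 2 h the 3 pairs correlated at 0.887, 0.654 and 0.635 in their deviations over probes, with both replicates numbered 1 being steep arrays, and in no other comparison were all pairs above 0.1. The replicate block changed no call of a member gene in that comparison (0 genes with it). Since 0 of all probes were called there with or without the block, the unchanged count cannot show whether pairing matters.

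Alternatives were quantile normalization, normexp background correction (offset 50), the authors' unscaled values, no filter and a stricter filter on dim probes, outlier spots kept, only the arrays compared, slide, replicate and spike-in class as blocks, the mean of a gene's probes, leaving out the 6 steep arrays or each array in turn, and, added after the data were seen, the 75th percentile over averaged probes.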

Additional observations from a re-analysis of the deposited data

How the results depend on the processing

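The calls of Jak2, Stat3 and Socs3 at 6 h held in all 18 fits that left out 1 array, with 3 genes each time both in ischemia with saline and in EPO-treated ischemia against sham. Of the alternatives, leaving out the 6 steep arrays left 1 saline array at 6 h. There the 3 genes lost their calls in ischemia with saline, and so did most of all probes called. The spike-in class as a block took the count in EPO-treated ischemia at 6 h to 5 genes. Over all probes 2235 were called higher and 3138 lower with that block, against 1869 and 2746 without it. Quantile normalization called 1 gene, Socs3, in ischemia with saline at 2 h and 1, again Socs3, in EPO-treated ischemia at 2 h (0.76 and 0.82). The ischemic change at 6 h minus that at 2 h went to 1 gene under quantile normalization, the authors' unscaled values, the filter for signal above background on all arrays, the spike-in block and the mean of a gene's probes, and ranged from 0 to 1 gene when each array was left out. The gene was Stat3 under the mean of a gene's probes (0.59, adjusted p = 0.00609 in limma) and Jak2 otherwise. Over all probes 410 were called in the main fit, 198 to 437 with each array left out and up to 568 under the other settings. EPO against saline gave 0 genes under every alternative run, at 2 h and at 6 h. With the replicate block, the counts were 0 and 3 in ischemia with saline at 2 h and 6 h, and 0 in EPO against saline at both times. Same-numbered arrays of the other comparisons did not all deviate together. Of the log2 changes of member probes under these settings, 2423 kept their side of the threshold and their size, 30 moved by more than a residual SD, 16 became called and 3 lost the call. For the last 3 and the counts they carry, fewer arrays were in the fit. For the others the cause was not tested. Over all probes, ischemia with saline at 6 h called 1372 higher and 1792 lower, and after quantile normalization 1462 higher and 1140 lower. Signal over background limits Epo, which was above it on 4 of 18 arrays and was not tested.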
